A study of Mus musculus with 10 samples.

Results

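Adipokines are the signalling proteins that fat tissue releases into blood, and the genes described here are those of adiponectin, leptin, resistin, retinol-binding protein 4, NAMPT and angiotensinogen, with the receptors of the first pair. The 10 genes were taken from a fixed list of names, Adipoq, Adipor1, Adipor2, Cdh13, Lep, Lepr, Retn, Rbp4, Nampt and Agt. All 10 were measured, among 19659 genes in all, each by 1 probe set with a value on every array. RNA came from the subcutaneous fat pad of the groin and thigh (inguinal-femoral) of F2 females that were 14 weeks old, and 10 mice were hybridised to a one-colour array each. The FF group (Fat/Fat, 5 mice) was homozygous for the Fat-line allele at Fob3a, an obesity locus on chromosome 15, and the VV group (V/V, 5 mice) was homozygous for the allele of the congenic V line, which the source labels call the Lean-line allele. Both groups descended from a cross of the Fat line with the V line, which had itself been made by repeated backcrossing to the Fat line, were fed chow and received no treatment. The groups therefore differ at Fob3a by design, and the segment of chromosome 15 around it, not a single gene, separates them. None of the 10 genes lies on chromosome 15 in the GRCm38.p6 annotation.

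Adiponectin is made almost only by adipocytes and acts on AdipoR1 and AdipoR2, while T-cadherin, the product of Cdh13, holds its multimers on vascular cells. Leptin reports the size of the fat store to the brain through the leptin receptor and circulates in proportion to fat mass. Resistin is an adipocyte hormone in mice, retinol-binding protein 4 carries retinol from liver and fat, NAMPT makes the NAD precursor nicotinamide mononucleotide and is also found outside cells as visfatin, and angiotensinogen is the substrate from which angiotensins are cut.

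None of the 10 genes differed between FF and VV fat past an adjusted p of 0.05 in limma with Benjamini-Hochberg adjustment over all genes, against 0.753% of all genes (148 of 19659). The shift was largest for Nampt, at 0.34 log2 units, followed by Lep at -0.24, Adipor2 at 0.18 and Adipor1 at 0.15. At an unadjusted p under 0.05, 3 genes lay higher and 1 lower in FF, 4 of 10, where 16.4% of all genes met that mark. The 5 FF and the 5 VV values did not overlap for 1 gene, Adipor2, against 4.7% of all genes. The median difference of the 10 genes was 0.0016 and that of all genes 0.00081, so the genes had no common direction, with 5 positive and 5 negative.

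**Figure D1:**
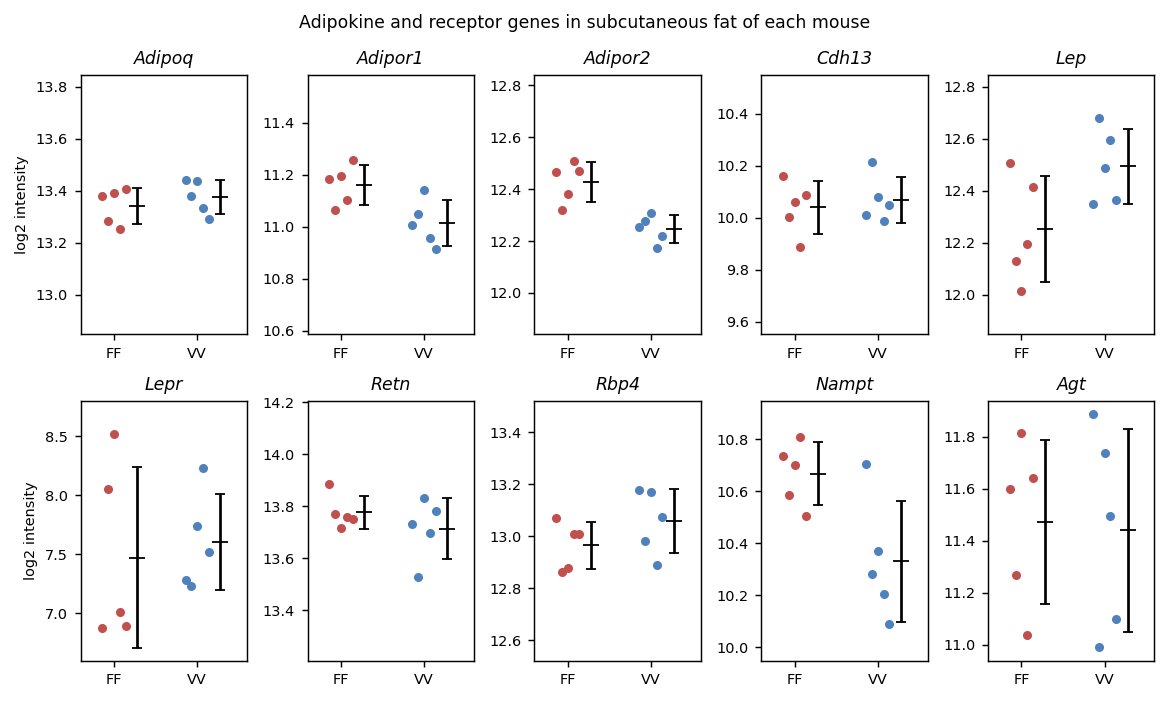
Normalised log2 intensity of each gene in each mouse, FF left and VV right, with a dash and bar for the mean and its SD (n = 5 each). Every panel spans 1 log2 unit except Lepr, which spans 2.2. Only in Adipor2 do the 5 FF values all lie on one side of the 5 VV values.

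Values are log2 intensities, so a difference of 1 unit is a 2-fold change. Whole-series facts bear on these genes in a few ways. FF array medians lay between 7.15 and 7.17 and VV medians between 7.18 and 7.21. RNA of liver genes was unequal: of 24 measured liver markers 23 had a negative difference and none passed the test, and their summed log2 intensity ran from 13.73 to 14.01 in FF mice and from 13.73 to 16.25 in VV mice, with VV replicate 1 the highest and VV replicate 2 next at 14.24. The brightest of them, Cyp2e1, did not follow this pattern (13.13 to 13.58 in FF and 13.03 to 13.54 in VV), while Alb, next brightest, had 13.91 in VV replicate 1 and 12.56 in VV replicate 2, against at most 11.12 in FF and 11.33 in the other VV mice. Thermogenic adipocyte markers summed to 12.88 to 14.27 in FF and 10.96 to 11.96 in VV, with 5 of 11 past the test, all higher in FF (Ucp1, Cidea, Cox7a1, Cox8b and Ppargc1a). Cox8b and Kcnk3 were the brightest of that list. Macrophage markers, led by Lyz2 and Cd68, summed to 13.39 to 13.83 in FF and 13.78 to 14.14 in VV, with 0 of 10 past the test and all 10 differences negative. Lymphocyte markers, led by Cd79b and Ptprc, summed to 10.99 to 11.81 in FF and 11.65 to 12.25 in VV. The 1 of 9 past the test, lower in FF, was Ptprc, which encodes CD45 and is a gene of leukocytes in general. Skeletal muscle markers, led by Myl1 and Acta1, reached 13.91 in FF replicate 1, against at most 12.56 in the other FF mice and 12.47 in VV. The tissue label fits its markers in that Lpl and Cidec, an enzyme that releases fatty acids and a lipid droplet protein of adipocytes, stood at 13.53 and 13.49 on average over all mice, and 0 of 12 mature adipocyte markers passed the test. The mean centred level of these markers was nonetheless higher in every FF mouse (0.028 to 0.12) than in any VV mouse (-0.12 to 0.021). Their summed log2 intensity did overlap, at 16.53 to 16.65 in FF and 16.44 to 16.58 in VV. Of the 12, 5 had an unadjusted limma p under 0.05, all positive, and 3 did not overlap, against 16.4% and 4.7% of all genes. No marker of progenitors (Dcn and Fn1 brightest, median -0.25), pericytes and smooth muscle (-0.12), endothelium (Cdh5 and Emcn, 0.048), mammary epithelium (Krt8 and Krt18, -0.041) or skeletal muscle (0.45) passed either. In such bulk tissue, fewer cells of a type and less RNA per cell cannot be told apart, and the part of these cell types in the differences below was not tested except where a value is given.

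Adiponectin RNA was nearly the same in both groups. Adipoq, on chromosome 16, had 13.38, 13.28, 13.39, 13.25 and 13.41 in FF replicates 1 to 5, against 13.44, 13.38, 13.44, 13.33 and 13.29 in VV replicates 1 to 5. The values are interleaved, and the mice with the lowest levels, FF replicates 2 and 4 and VV replicate 5, come from both groups. FF averaged 13.34 ± 0.07 and VV 13.38 ± 0.07 (SD over 5 mice per group). The difference was -0.034, its 95% interval ran from -0.14 to 0.074, and limma gave an adjusted p of 0.783. On the linear scale the interval runs from 0.906-fold to 1.05-fold. With 1 mouse left out the difference ran from -0.055, without VV replicate 5, to -0.012, without FF replicate 4. Centring each array on its median adds 0.037 to the difference of every gene alike, which puts Adipoq at 0.0029. Adipoq also varied little among mice of 1 genotype, with an SD of 0.067 at percentile 15.2 of all genes.

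The promoters of Adipoq, Lep, Adipor2 and Nampt are printed because they belong to the adipocyte's main hormone and to the genes with the largest shifts among the 10. Each window runs from 250 bases before the RefSeq transcription start to 50 after it, in GRCm38.p6, 5′ to 3′ on the gene's own strand. Capitals mark a match, on either strand, to one of 5 motifs: the TATA-box letters TATAA; the NF-Y letters CCAAT; the GC box GGGCGG; the C/EBP palindrome TTGCGCAA; and the nuclear receptor site AGGTCA.
Adipoq (chr16:23146286-23146585, plus strand): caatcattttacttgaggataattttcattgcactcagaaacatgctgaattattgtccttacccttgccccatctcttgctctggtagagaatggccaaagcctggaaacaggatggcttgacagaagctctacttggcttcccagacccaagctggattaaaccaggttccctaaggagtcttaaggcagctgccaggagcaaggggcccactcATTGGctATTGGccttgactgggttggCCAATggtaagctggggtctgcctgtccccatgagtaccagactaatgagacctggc
Lep (chr6:29059971-29060270, plus strand): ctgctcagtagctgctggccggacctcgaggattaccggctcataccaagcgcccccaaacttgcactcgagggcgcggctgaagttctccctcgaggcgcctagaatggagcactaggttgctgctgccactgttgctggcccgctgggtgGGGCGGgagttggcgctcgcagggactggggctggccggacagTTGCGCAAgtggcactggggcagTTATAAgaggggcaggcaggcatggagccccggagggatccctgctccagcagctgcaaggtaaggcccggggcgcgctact
Adipor2 (chr6:119388685-119388984, minus strand): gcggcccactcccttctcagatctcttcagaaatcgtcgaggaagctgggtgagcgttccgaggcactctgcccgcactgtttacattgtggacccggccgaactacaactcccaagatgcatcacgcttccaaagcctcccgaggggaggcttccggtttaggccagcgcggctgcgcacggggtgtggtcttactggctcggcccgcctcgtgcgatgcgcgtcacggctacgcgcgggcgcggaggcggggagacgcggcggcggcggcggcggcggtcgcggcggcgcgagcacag
Nampt (chr12:32820085-32820384, plus strand): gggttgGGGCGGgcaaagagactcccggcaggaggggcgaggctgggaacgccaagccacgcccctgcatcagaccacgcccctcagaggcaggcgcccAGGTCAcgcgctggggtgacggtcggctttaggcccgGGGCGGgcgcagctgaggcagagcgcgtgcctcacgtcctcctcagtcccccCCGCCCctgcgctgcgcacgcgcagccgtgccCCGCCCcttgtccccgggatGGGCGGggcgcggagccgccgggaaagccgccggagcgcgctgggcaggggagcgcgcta

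These 4 windows differ in base composition and in the letters they hold. The Adipoq window is 50% G and C and holds CCAAT 3 times, beginning at -34, -27 and -7 from the start, with no TATAA. The Lep window, at 66.0%, holds TATAA at -31, where its reverse complement also begins at -32 in the same letters, GGGCGG at -98, and TTGCGCAA at -55. TTGCGCAA occurs in 60 of 32851 promoter windows, or 0.18%. TATAA occurs in 24.87% of the windows, CCAAT in 37.41%, GGGCGG in 35.66% and AGGTCA in 16.26%. The Nampt window, 76.3% G and C, holds GGGCGG 5 times and AGGTCA at -151, and none of the 5 motifs was found in the Adipor2 window, at 68.7%. Over all windows the share of G and C was 53.8%. Of the 10 genes 9 had a window. These are reference letters, and whether the Fat-line and V-line alleles share them was not analysed here.

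The receptors for adiponectin lay slightly higher in FF mice, though neither receptor passed the test. Adipor2, which works through PPAR-alpha in liver and also lies in adipocytes, had 12.47, 12.32, 12.38, 12.51 and 12.47 in FF replicates 1 to 5, against 12.25, 12.28, 12.31, 12.17 and 12.22 in VV replicates 1 to 5. The groups did not overlap, though FF replicate 2 and VV replicate 3 lay close, at 12.32 and 12.31. The difference was 0.18 ± 0.05 (SE), a 1.13-fold level with a 95% interval from 1.05 to 1.22. Its adjusted p was 0.0943 in limma, short of the threshold, and an exact permutation test over all assignments of the mice gave an unadjusted two-sided p of 0.00794, the smallest it can give. The adjusted p was 0.042 after each array was centred on its median, which raised the difference to 0.22, and it ran from 0.0868 to 0.182 with 1 mouse left out.

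Adipor1, a receptor tied to AMP-activated kinase, had 11.18, 11.07, 11.19, 11.10 and 11.26 in FF replicates 1 to 5, against 11.01, 11.05, 11.14, 10.96 and 10.92 in VV replicates 1 to 5. Here the groups overlapped, since VV replicate 3 lay above FF replicates 2 and 4. The difference was 0.15 ± 0.06 (SE), 1.11-fold (95% interval 1.02 to 1.20), with an adjusted p of 0.213 in limma and an unadjusted exact permutation p of 0.0317. Within genotypes Adipor1 followed the mature adipocyte score, with r = 0.83 and rho = 0.79 over 10 mice (exact permutation p = 0.00597 and 0.0174, adjusted p = 0.149 and 0.330 over 100 pairs), and r = 0.59 without the 2 farthest mice. That mean centred score lay higher in FF, though the summed level of its markers overlapped. The part of that score in the difference was not tested. Cdh13, which encodes T-cadherin, ran from 9.89 to 10.16 in FF and from 9.99 to 10.21 in VV. Its difference was -0.028 with a 95% interval from -0.16 to 0.11, and it lay between -0.073 and 0.0098 over 22 alternatives.

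Lep, the leptin gene, had 12.51, 12.13, 12.02, 12.20 and 12.41 in FF replicates 1 to 5, against 12.35, 12.68, 12.49, 12.60 and 12.36 in VV replicates 1 to 5. The lowest 3 values were all FF, but FF replicates 1 and 5 lay above the lowest VV mouse. FF averaged 12.25 ± 0.20 and VV 12.50 ± 0.14 (SD over 5 mice per group). That is a difference of -0.24, or 0.846-fold, with a 95% interval from 0.725 to 0.986. The unadjusted p was 0.0347 in limma, the adjusted p 0.257 and the exact permutation p 0.0714. The difference lay between -0.31 and -0.18 with 1 mouse left out.

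**Figure D2:**
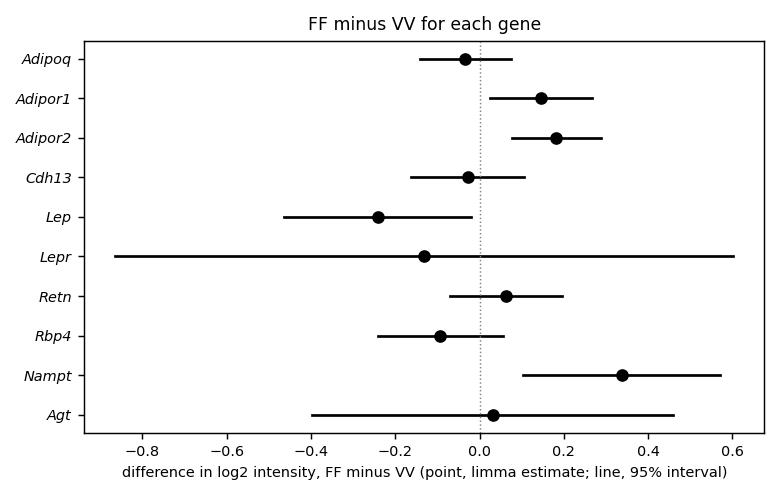
Difference in log2 intensity, FF minus VV, for each gene, with its 95% interval. The intervals of Adipor1, Adipor2 and Nampt lie above 0 and that of Lep below it before any adjustment, while the interval of Lepr is the widest, from -0.86 to 0.60.

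Lepr, the leptin receptor, varied most of the 10 genes. It had 6.88, 8.05, 8.52, 7.01 and 6.89 in FF replicates 1 to 5, against 7.28, 7.23, 7.74, 8.23 and 7.52 in VV replicates 1 to 5. Both the highest and the lowest mouse were FF, with FF replicates 2 and 3 more than 1 log2 unit above the other FF mice, and VV replicate 4 was the highest VV mouse. The SD within genotypes was 0.61, at percentile 98.7 of all genes, where the median gene had 0.11. The difference between genotypes was -0.13 with a 95% interval from -0.86 to 0.60, which spans 0.549-fold to 1.52-fold.

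Resistin and retinol-binding protein 4 RNA did not separate the groups. Retn ran from 13.72 to 13.88 in FF and from 13.53 to 13.83 in VV, a difference of 0.062 with a 95% interval from -0.071 to 0.20. The VV mouse with the least Retn, replicate 2, carried much of it: without that mouse the difference was 0.015, without VV replicates 1 and 2 it was 0.0061, and without FF replicate 1, the mouse with the most, it was 0.035. Rbp4 ran from 12.86 to 13.07 in FF and from 12.89 to 13.18 in VV, a difference of -0.093 with a 95% interval from -0.24 to 0.055. VV replicate 1 had the highest Rbp4 value of the 10 mice, 13.18, and VV replicate 3 had nearly as much, 13.17. With 1 mouse left out the difference of Rbp4 ran from -0.14 to -0.063, and with the liver marker score as a covariate it was -0.065. The brightest probe sets leave little room above them: the highest level of Retn lay 0.28 log2 units below the highest value of any gene tested and that of Adipoq 0.73, and whether these signals were near saturation cannot be read from the deposited values.

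NAMPT is the rate-limiting enzyme of NAD salvage and Nampt had the largest difference of the 10 genes. It had 10.74, 10.59, 10.70, 10.81 and 10.51 in FF replicates 1 to 5, against 10.70, 10.28, 10.37, 10.20 and 10.09 in VV replicates 1 to 5. Apart from VV replicate 1, every VV mouse lay below every FF mouse. VV replicate 1 was also the mouse with the highest liver marker sum, 16.25. The difference was 0.34 ± 0.11 (SE), a 1.26-fold level with a 95% interval from 1.07 to 1.48, with an adjusted p of 0.141 in limma and an unadjusted exact permutation p of 0.0317. Without VV replicate 1 it was 0.43 with an adjusted p of 0.0415, and with the liver marker score as a covariate it was 0.45 with an adjusted p of 0.0469. That score was 3.48 in VV replicate 1 and at most 0.31 in any other mouse, so both settings largely act on the same mouse. With any other single mouse left out the difference ran from 0.28, without VV replicate 5, to 0.38, without FF replicate 5, and the adjusted p from 0.151 to 0.263. It was 0.41 (adjusted p = 0.0898) without FF replicate 1 and VV replicate 1 together, and 0.45 (adjusted p = 0.105) without VV replicates 1 and 2 together.

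Agt, which encodes angiotensinogen, had 11.60, 11.27, 11.82, 11.04 and 11.64 in FF replicates 1 to 5, against 11.89, 10.99, 11.74, 11.50 and 11.10 in VV replicates 1 to 5. High and low mice occurred in both groups. The SD within genotypes was 0.35, at percentile 96.6 of all genes, and the difference was 0.031 with a 95% interval from -0.40 to 0.46. Its sign turned under 6 of 22 alternatives, to between -0.082 and -0.00088, though some of the 22 cannot change the difference by construction.

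**Figure D3:**
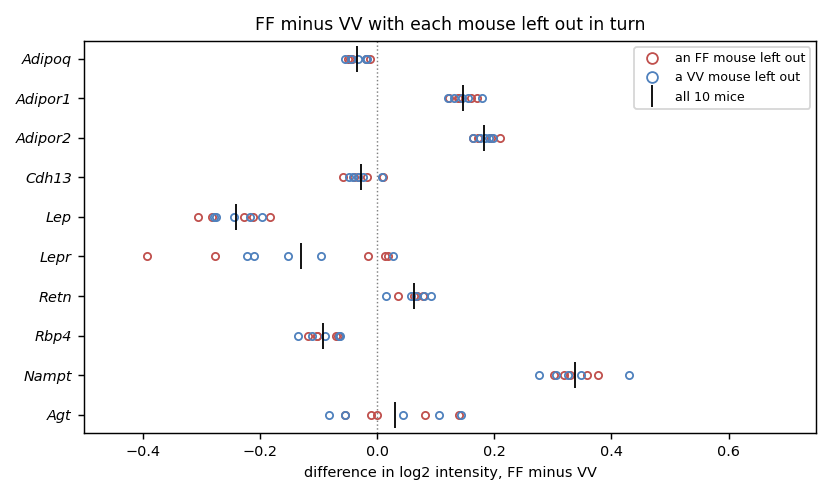
Difference in log2 intensity, FF minus VV, with all 10 mice (bar) and with each mouse left out in turn (circles). Those of Adipor1, Adipor2 and Nampt stay above 0 and that of Lep below it, while those of Agt, Cdh13 and Lepr fall on both sides.

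Mice of 1 genotype also differed from each other, so each gene was set against the others after subtracting its genotype mean. Of 45 pairs, 5 had an unadjusted p under 0.05 and 0 passed an adjusted p of 0.05 by Pearson's r or Spearman's rho (exact permutation within genotypes, two-sided). The closest pair was Adipoq with Adipor1, whose r was 0.86 and rho 0.73 over 10 mice (exact p = 0.00604 and 0.0304, adjusted p = 0.272 and 0.456), and r was 0.82 without the 2 mice farthest from the median of Adipoq. Adipoq with Agt had r = 0.81 and rho = 0.83 (exact p = 0.0152 and 0.00854, adjusted p = 0.275 and 0.384), and r = 0.67 without the 2 farthest mice. Lepr ran opposite to Adipor2, with r = -0.76 and rho = -0.70 (exact p = 0.0287 and 0.0608, adjusted p = 0.275 and 0.547), and r was -0.66 without the 2 farthest mice.

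The same deviations were set against 10 scores, each the mean log2 level of a cell type's markers. Of 100 pairs 12 had an unadjusted p under 0.05 and 0 an adjusted p under 0.05. Lepr followed the pericyte and smooth muscle score, led by Acta2 and Rgs5, with r = 0.81 and rho = 0.81 (exact p = 0.00264 and 0.00806, adjusted p = 0.106 and 0.269). It was 0.88 without the 2 mice farthest from the median score. Adipoq followed the mature adipocyte score, with r = 0.84 and rho = 0.85 (exact p = 0.00319 and 0.00472, adjusted p = 0.106 and 0.236), and r = 0.81 without the 2 farthest mice. Retn ran opposite to the macrophage score, with r = -0.85 and rho = -0.85 (exact p = 0.00278 and 0.00174, adjusted p = 0.106 and 0.174), and r = -0.77 without the 2 farthest mice. No member is in a marker list. All such scores come from the same arrays as the genes, and the 3 relations were picked as those with the smallest p.

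**Figure D4:**
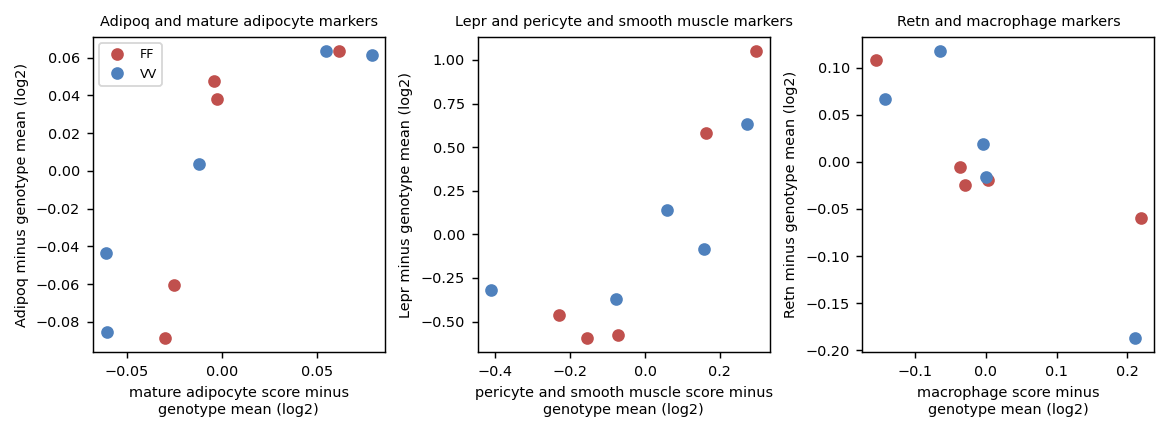
Deviation of each mouse from its genotype mean in the level of Adipoq, Lepr and Retn (vertical, log2) against the deviation of the mature adipocyte, pericyte and smooth muscle, and macrophage marker score (horizontal, log2), 5 FF and 5 VV mice. Points rise together in the first and middle panels and run opposite in the last, with r of 0.84, 0.81 and -0.85.

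Across all genes other than the 10, those whose pattern over the 10 mice was most like a member's were found by Pearson's r after subtracting genotype means, and their r is a description of a search over all genes. Nearest to Adipoq were Klhl22 (r = 0.99), Gtf3c3 (r = 0.95) and Acp1 (r = 0.94). Nearest to Lep were Olfr685, Magel2 and Olfr24 (r = 0.97, 0.97 and 0.95), whose mean levels were 5.51, 6.48 and 5.55, all below the median gene at 7.53. For Retn they were Lypd6b, Gal3st2c and Gcat (r = 0.96, 0.94 and 0.94), and for Rbp4 they were Ubxn6, C1qtnf12, which encodes adipolin, another secreted protein of fat, and Bola3, a protein of iron-sulphur cluster assembly (r = 0.99, 0.98 and 0.98).

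Measured genes of 8 pathway lists around the adipokines, 6 to 33 in each, were read from the same fit. At a share near the 0.753% of all genes, 1 gene passed the test. It was Sh2b1, an adaptor that binds JAK2 and aids leptin receptor signalling, with 8.47, 8.53, 8.45, 8.52 and 8.49 in FF replicates 1 to 5, against 8.22, 8.26, 8.23, 8.26 and 8.33 in VV replicates 1 to 5. Sh2b1 rose by 0.23 ± 0.04 (SE) in FF with an adjusted p of 0.0352 in limma, and the groups did not overlap. The adjusted p stayed under 0.05 when FF replicate 3 was left out and lay between 0.0533 and 0.0965 when any other mouse was, while the difference ran from 0.22 to 0.25. It was the 1 call among 15 measured genes below the leptin receptor, whose median difference was 0.016. Of the other members, Stat5a differed by 0.18, Jak2, the receptor's kinase, by -0.18, and Socs3, the inhibitor that leptin induces, by 0.068, and none of these passed.

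Of 13 measured genes for adiponectin secretion and signalling none passed, 9 were positive, and the median was 0.11. Over all genes 9894 of 19659 were positive, with a median of 0.00081. After the arrays were centred only 35.2% of all genes were negative, and the positive genes of this list were not counted again. Prkaa2, a catalytic subunit of AMP-activated kinase, differed by 0.38 (adjusted p = 0.103 in limma) and Camkk2, which activates that kinase, by 0.17 (adjusted p = 0.149). Ppara, named after its values were seen, had the largest difference of the list, 0.81 with overlap (adjusted p = 0.171 in limma). It lies on chromosome 15, as do Prkaa1 (0.058) and Prkag1 (0.11) of the same list. Whether these genes lie in the Fob3a segment was not tested. Of 12 transcription factors known to control adipokine genes 0 passed, 10 were positive and the median was 0.16. Srebf1 differed by 0.60 without overlap (adjusted p = 0.0692) and Cebpa, the C/EBP-alpha factor of mature adipocytes, by 0.27 (adjusted p = 0.0914). Srebf1 had an adjusted p under 0.05 in 4 of 22 alternatives and Cebpa in 2. Both also passed where the threshold itself was raised to 0.10, which leaves the fit unchanged.

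The NAD genes had a median of 0.091, with 11 of 16 measured positive and none past the test. Over all genes 9894 of 19659 were positive. Slc25a51, the mitochondrial NAD carrier, differed by 0.34 (adjusted p = 0.0742) and Nmnat3, which makes NAD in mitochondria from NAMPT's product, by 0.27 without overlap (adjusted p = 0.105). Of 16 measured retinol genes none passed, with a median of -0.066, and Rdh10, which oxidises retinol, differed by 0.17 (adjusted p = 0.134), while Stra6l, a retinol-binding protein receptor, differed by -0.18 (adjusted p = 0.284). Without VV replicate 1 the Stra6l difference was -0.10, and with the liver covariate it was -0.086. Ttr, the plasma partner of retinol-binding protein, differed by -1.22 (adjusted p = 0.504 in limma) and was named after its values were seen. It had 10.96 in VV replicate 1 against at most 6.33 in FF and 6.98 in the other VV mice. Ttr is also in the liver marker list, whose score was highest in VV replicate 1. In the renin-angiotensin system 0 of 10 measured genes passed, and Atp6ap2, the prorenin receptor, and Agtr2, an angiotensin receptor, differed by -0.18 and -0.40 (adjusted p = 0.182 and 0.327). VV replicate 4 had the highest Agtr2 value, 7.35, and without it the difference was -0.24. Of 6 resistin-like proteins and proposed receptors none passed, with Cap1 at -0.15 and Retnlg at 0.088 (adjusted p = 0.227 and 0.658). With 1 mouse left out Retnlg ran from 0.050, without FF replicate 4, to 0.15, without VV replicate 5.

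Of 33 other measured factors secreted by fat none passed the test. A negative difference was found for 26 of the 33, or 78.8%, against 49.7% of all genes. After the arrays were centred it was found for 23 of the 33, or 69.7%, against 35.2% of all genes. The median of the 33 was -0.089, and -0.052 after centring, where that of all genes was 0.00081 and 0.038. Fstl1, a follistatin-like glycoprotein of stromal cells, differed by -0.33 (adjusted p = 0.0902 in limma). Saa3, an acute phase protein of inflamed fat, ran from 7.41 to 8.57 in FF and from 8.06 to 9.69 in VV, a difference of -1.05 (adjusted p = 0.108), and it was -0.69 without VV replicates 1 and 2 and -0.75 without FF replicate 1 and VV replicate 1. The highest Saa3 value was that of VV replicate 1, 9.69. Macrophage markers, given above, all lay lower in FF as well, and their part in these differences was not tested.

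**Figure D5:**
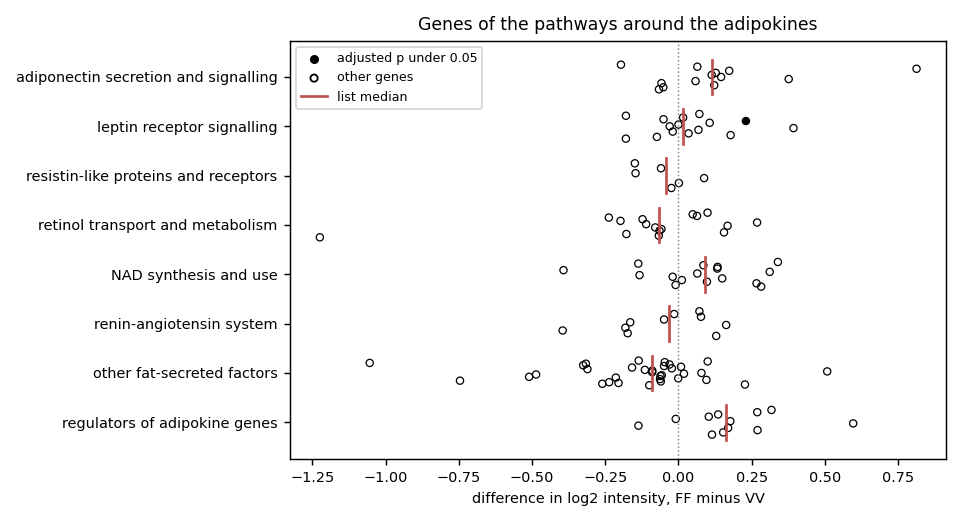
Difference in log2 intensity, FF minus VV, of each measured gene of 8 pathway lists (circles, filled where the adjusted p is under 0.05) and the list median (red bar). The 1 filled point is Sh2b1 in the leptin receptor list at 0.23. The point at -1.22 in the retinol list is Ttr, which is also in the liver marker list.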

How the data were processed

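Gene expression was measured in fat of 10 mice on one-colour arrays, and the authors deposited 1 log2 intensity for each probe set and array, made with RMA per the submitters' processing notes. No RMA version or genome build was found in the labels. Of 35557 probe sets, 25689 had values on all arrays, and 20777 of these named 1 gene; 232 naming several and 4680 not named were left out, and the brightest probe set stood for each of 19659 genes. Symbols and chromosomes came from GRCm38.p6 annotation, promoters from RefSeq.

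FF and VV were compared in R 4.3.3 with limma 3.58.1 (lmFit, eBayes, two-sided, Benjamini-Hochberg over all genes). Single genes were also tested by exact permutation, unadjusted, for the 10 members. The 18 lists held 253 genes, 237 of them measured. Each mouse is a separate animal per the labels, and the number of arrays limits the precision. The members, lists and alternatives were chosen with earlier results of these data known. Named are the 10 genes, the list genes past the test or else the 2 with the smallest p of each pathway list, the 2 brightest of each marker list, and the 3 nearest of 4 members; others (such as Stat5a, Jak2, Socs3 and Ttr) were named after their values were seen.

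Same-numbered FF and VV mice deviated from their group means with correlations of 0.10, 0.011, -0.083, -0.26 and -0.15 over all genes, so the numbers were not taken as pairs.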

Additional observations from a re-analysis of the deposited data

How the results depend on the processing

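The adipokine count of 0 became 1 with the liver score as a covariate (Nampt), after centring arrays on their median (Adipor2) and at an adjusted p of 0.10 (Adipor2), and lay between 0 and 1 with 1 mouse left out, where the 1 was Nampt without VV replicate 1. That mouse had by far the highest liver score, so the Nampt settings are not separate checks. Over all genes 148 were called, and this became 28 without FF replicate 1 and VV replicate 1, 8 without VV replicates 1 and 2, 66 with the liver covariate, 601 after centring, 355 without dim genes, 383 with array weights, 7 with an unmoderated test and 704 at 0.10, and it ran from 7 to 379 with 1 mouse left out. With the replicate block it was 5; 1 of 5 FF mice correlated best with its own number, and 0 adipokine genes passed. Centring adds 0.037 to every difference by its construction, which alone puts Adipoq at 0.0029 and Cdh13 at 0.0090. Cdh13 was 0.0013 without VV replicates 1 and 2, Agt was -0.045 with array weights, and Retnlg was -0.0014 without VV replicates 1 and 2. With 1 mouse left out Cdh13 ran from -0.058 to 0.0098, Lepr from -0.39 to 0.027 and Agt from -0.082 to 0.14. Some of the 22 alternatives, such as the unmoderated test and the replicate block, cannot change a difference by construction. Over the 22 alternatives Adipor1, Adipor2, Lep and Nampt kept their sign, as did Rbp4 (-0.14 to -0.056) and Retn (0.0061 to 0.099), whose size moved more. Apart from centring, the cause was not tested. Sh2b1 passed under 8 of 22 alternatives, with an adjusted p from 0.0162 to 0.163, the highest with the replicate block. The looser threshold of 0.10 is among the 8 and repeats the main fit, so it is no check. Averaging probe sets, also among them, left the Sh2b1 difference unchanged at 0.23. Whether Retn and Adipoq were near saturation was not tested.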
